A study of Mus musculus with 4 samples.

Results

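Genes of the lysosome were followed here as a list of 45: 23 hydrolases, activators and cholesterol carriers, 4 proteases and related proteins, 6 membrane proteins, the proton pump, and the receptor and transcription factors that serve the compartment. Members were the rows of the deposited gene table whose gene name was on that list. All 45 were found among its 54532 genes, and all 45 averaged 1 FPKM or more across the 4 libraries, the filter that left 11885 genes for testing. FPKM is the number of sequenced fragments scaled to gene length and to a factor for each library, so levels can be compared between genes. Comparisons between libraries rest on that factor, which is given below.

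The RNA came from mouse cells labelled as primary lung fibroblasts, in 2 libraries of genotype Calu-WT (WT) and 2 of genotype Calu-KO. The targeted gene, Calu, codes for calumenin, which binds calcium in the secretory pathway, and the study asked about protein folding and vimentin in fibrosis. The titles of the Calu-KO libraries carry the letters KD. The sources used here do not state how Calu was targeted, the mouse strain, the age or any treatment. Nor do the labels tell whether replicate libraries stem from separate animals or cultures, so the p-values measure only spread among these 4 samples, possibly technical.

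Lysosomes break down proteins, glycans and lipids in an acidic lumen. A vacuolar proton pump, built from a membrane sector and a cytosolic ATPase sector, makes that acid. Most hydrolases are made in the endoplasmic reticulum, marked with mannose phosphate in the Golgi and carried to the lysosome by receptors, and inherited loss of single enzymes causes lysosomal storage diseases. The MiT/TFE transcription factors TFEB, TFE3 and MITF bind an E-box, CACGTG, found in the promoters of many lysosomal genes. Fibroblasts take up collagen and degrade it in lysosomes, with cathepsin K among the proteases.

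The lysosomal list was lower in Calu-KO than in WT. Its summed level was 1660 and 1670 FPKM in WT replicates 1 and 2 and 1358 and 1262 FPKM in Calu-KO replicates 1 and 2, a 1.27-fold lower mean. In bulk RNA, fewer cells of a type and less RNA per cell cannot be told apart. Of the 45 members, 34 (75.6%) had a negative log2 change, against 49.3% of all tested genes. The median log2 change of the members, on log2(FPKM + 1), was -0.26, and that of all tested genes was 0.01.

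Few members passed the test gene by gene. By limma (two-sided, Benjamini-Hochberg adjustment over all 11885 genes, threshold 0.05), 2 members fell, Hexa and Gla, beside 1.83% of all tested genes that fell. No member rose (0 at the threshold, 2 at an unadjusted p under 0.05), beside 0.942% of all tested genes. At an unadjusted p under 0.05, 17 members were lower, where 12.7% of all tested genes were lower and 12.0% higher. Both Calu-KO libraries were below both WT libraries for 29 members, where the share over all tested genes was 29.7%, and above both for 6, where it was 32.0%. The groups overlapped for the other 10. With 2 libraries against 2, an exact permutation test cannot give a two-sided p below 0.333.

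**Figure D1:**
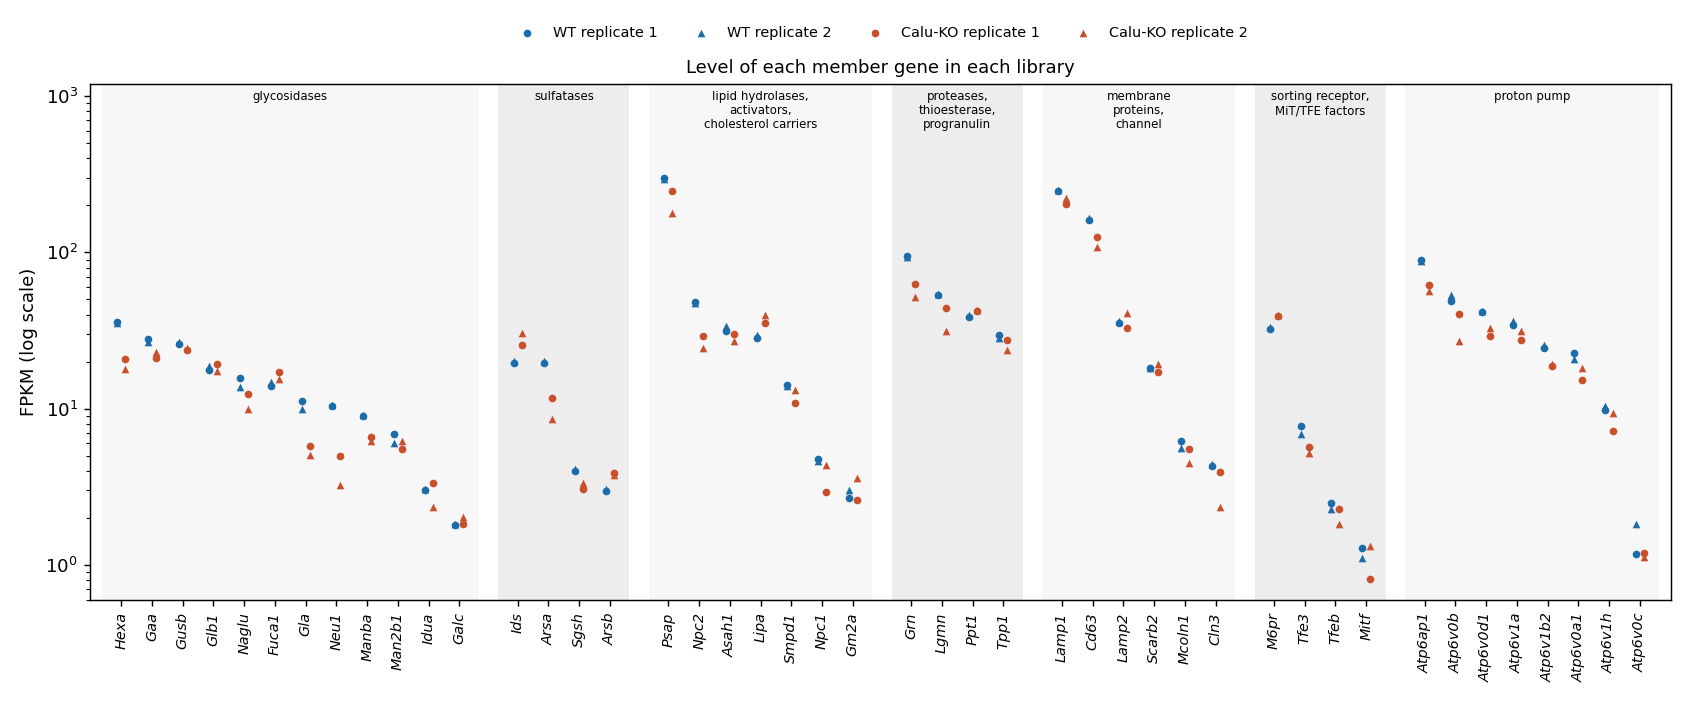
Level of each of the 45 member genes in each library, in FPKM on a log scale, ordered by WT level within each role. Circles are replicate 1 and triangles replicate 2, with WT in blue and Calu-KO in red. The red points of Hexa, Gla, Neu1, Arsa, Npc2 and Grn lie below the blue ones, and those of Ids and Lipa above.

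Libraries were of even depth, at 15635448 to 16510048 reads, and a member had 56 to 13504 reads in a library. The deposited FPKM did not follow these totals. A read in 1 kb stood for 0.0611 and 0.0602 FPKM in WT replicates 1 and 2. In Calu-KO replicates 1 and 2 it stood for 0.0591 and 0.0684 FPKM. How this scaling was set is not stated. With scaling to total reads the members' median log2 change was -0.350 and that of all tested genes -0.088. Calu itself, the targeted gene, stood at 178 and 177 FPKM in WT and at 14.9 and 10.9 FPKM in Calu-KO, a 13.7-fold fall (limma, adjusted p = 0.00493). Calu-KO replicate 2 stood apart, with 4.0% of its reads on mitochondrial genes against 2.43% to 2.53% in the others and fewer genes with a read (18739 against 19772 to 20477). Of 11 fibroblast markers 8 were tested. Vim overlapped between groups, Col1a1 and Col1a2 were separated upwards and Pdgfrb and Fn1 downwards, and Col3a1 fell from 38.9 and 39.4 to 11.9 and 12.2 FPKM (limma, adjusted p = 0.0115). Dcn and Lum were at 0 in every library, and 0 of 6 lung mesenchyme transcription factors passed the filter. Epithelial, endothelial and lymphocyte markers had 0 tested genes of 8, 6 and 4. Of 5 mesothelial markers 2 were tested, Msln and Krt8. The list of 5 summed to 32.7 to 35.8 FPKM in WT and 22.2 to 25.3 FPKM in Calu-KO. Most of that sum was Msln, at 33.0 and 30.4 FPKM in WT and 25.2 and 22.1 FPKM in Calu-KO (limma, adjusted p = 0.141). Krt8, a keratin on that list, fell from 2.75 and 2.28 to 0.060 and 0.070 FPKM (limma, adjusted p = 0.0274). Across all tested genes, which are not independent replicates, the log2 change ran with GC content (Spearman's rho -0.31). The median GC content of members was 51.2% and that of all tested genes 49.4%. With the trend in GC content and length removed, the members' median was -0.26, but single members moved both ways. Hexa went from -0.837 to -0.641, Psap from -0.506 to -0.352 and Naglu from -0.375 to -0.140. Away from 0 went Npc1, from -0.306 to -0.513, and Manba, from -0.440 to -0.553.

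Macrophages are rich in lysosomes, so their markers are given beside the lysosomal values. The list of 12 macrophage markers summed to 16.7 to 17.1 FPKM in WT and to 6.56 to 7.63 FPKM in Calu-KO, 2.38-fold lower. Adgre1, Itgam, Mrc1, Siglecf and Fcgr3 were at 0 in all 4 libraries, and 9 of the 12 were under the filter. Csf1r, Tyrobp, Ptprc and Marco were under the filter but had some reads. Ordered as WT 1, WT 2, Calu-KO 1, Calu-KO 2, Csf1r held 12, 17, 5 and 7 reads. Tyrobp held 7, 1, 0 and 0, Ptprc 1, 1, 0 and 0, and Marco 2, 0, 0 and 0. Lyz2, lysozyme, was the 1 marker of the 3 tested that fell, from 6.59 and 7.23 to 1.71 and 1.25 FPKM (limma, adjusted p = 0.0254). Cd68, which is itself a lysosomal membrane glycoprotein, stood at 4.32 and 4.79 FPKM in WT and at 2.40 and 2.78 FPKM in Calu-KO. Cd14 stood at 4.90 and 4.83 FPKM in WT and at 3.46 and 2.44 FPKM in Calu-KO. Cd68 and Cd14 were separated downwards without passing (limma, adjusted p = 0.0888 and 0.136). The part of such cells in the lysosomal values was not tested.

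Promoters of the members held the E-box often. RefSeq windows of 300 bases (250 before to 50 after a transcript start, GRCm38.p6) were matched by symbol for 40 members, 7 of them with several windows. The word CACGTG, which reads the same on both strands, was in a window of 13 members (32.5%), against 12.3% of 8392 tested genes and 8.09% of 27025 genes with a window. The longer word TCACGTG, or its reverse CACGTGA, contains it and was in the same 13, against 7.47% of tested genes. The full palindrome TCACGTGA, which contains both, was in 5 members (12.5%), against 2.48% of tested genes. The stretches below show the word in the 5 genes with the full palindrome, in Arsa, Lamp1 and Glb1, with CACGTG in capitals and the coding strand read 5′ to 3′. Of these, Glb1 is shown because its groups overlapped.
Gla, chrX:134601217-134601242, minus strand: agcgattgatCACGTGagcatctacg
Gla, chrX:134601184-134601209, minus strand: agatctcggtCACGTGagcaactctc
Cln3, chr7:126583342-126583367, minus strand: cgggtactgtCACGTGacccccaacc
Mcoln1, chr8:3500464-3500489, plus strand: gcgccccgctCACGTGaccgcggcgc
Atp6v0d1, chr8:105566052-105566077, minus strand: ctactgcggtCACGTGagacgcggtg
Atp6v1a, chr16:44139375-44139400, minus strand: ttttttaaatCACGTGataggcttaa
Arsa, chr15:89477425-89477450, minus strand: aactcagtgtCACGTGttgtctgctc
Lamp1, chr8:13159090-13159115, plus strand: ggcaagatatCACGTGgtccagcgcc
Glb1, chr9:114401020-114401045, plus strand: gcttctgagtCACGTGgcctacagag

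Counted from the transcript start, the word began at -227 and -194 in Gla, -149 and -121 in Cln3, -71 and -45 in Mcoln1, -3 in Atp6v0d1 and -131 in Atp6v1a. In Lamp1 it occurred 4 times, from -61 to -15. The other members with it were Atp6v0b, Gaa, Lgmn, Naglu and Sgsh. Members with the word had a median log2 change of -0.37, and both Calu-KO libraries were below both WT libraries in 12 of 13, with Glb1 the exception. Members whose windows lacked it had a median of -0.16 and were separated downwards in 13 of 27 and upwards in 5. Among them were Hexa, Npc2, Grn and Neu1, the last with the lowest log2 change of all members, -1.19. Over all tested genes the word went with little difference, at a median of -0.03 with it and 0.01 without. Separated downwards were 34.4% with it and 30.6% without, and separated upwards 28.7% and 33.6%. A match is a description of the sequence, and binding was not measured.

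Glycosidases, which trim sugars from glycoproteins, glycolipids and glycosaminoglycans, held both members that fell. Hexa encodes the alpha subunit of beta-hexosaminidase, which removes the terminal sugar of GM2 ganglioside (ENSMUSG00000025232, chromosome 9, 59539540 to 59565109, mm10). It stood at 35.6 and 35.2 FPKM in WT replicates 1 and 2 and at 20.8 and 18.1 FPKM in Calu-KO replicates 1 and 2. Its mean went from 35.4 ± 0.298 to 19.5 ± 1.95 FPKM (SD, n = 2 each), a 1.82-fold fall. The log2 change was -0.84 ± 0.12 (SE; limma, adjusted p = 0.0427). The lower WT library lay well above the higher Calu-KO library.

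Gla encodes alpha-galactosidase A, the enzyme that clears globotriaosylceramide and is deficient in Fabry disease (ENSMUSG00000031266, chromosome X, 134588149 to 134601125, mm10). Its levels were 11.2 and 9.96 FPKM in WT and 5.74 and 5.03 FPKM in Calu-KO, again without overlap. The fall was 1.97-fold, from a mean of 10.6 ± 0.909 to 5.39 ± 0.503 FPKM (SD, n = 2 each; log2 change -0.86 ± 0.13, limma, adjusted p = 0.0451). Both calls were close to the threshold and hung on the WT libraries. Without WT replicate 1 the adjusted p of limma was 0.422 for Gla and 0.382 for Hexa, and without WT replicate 2 it was 0.287 and 0.361. Without Calu-KO replicate 1 it was 0.00495 and 0.00264, and without Calu-KO replicate 2 it was 0.0224 and 0.0118. Leaving out a Calu-KO library takes the spread from the WT pair alone, with the lone library assumed to vary like it. Over 12 alternatives the adjusted p ran from 0.00495 to 0.422 for Gla, which passed 6, and from 0.00264 to 0.382 for Hexa, which passed 7.

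Neu1, the lysosomal sialidase (ENSMUSG00000007038), had the lowest log2 change of the 45 members. It was at 10.5 FPKM in both WT libraries and at 4.96 and 3.26 FPKM in Calu-KO, a 2.55-fold lower mean. The pair of Calu-KO libraries differed more than the WT pair, and the log2 change of -1.19 ± 0.19 just missed the threshold (limma, adjusted p = 0.0503, passed in 6 of 12 alternatives). Manba, beta-mannosidase, was at 8.95 and 9.14 FPKM in WT and at 6.59 and 6.21 FPKM in Calu-KO (log2 change -0.44, adjusted p = 0.108). Naglu, an enzyme of heparan sulfate breakdown, was at 15.7 and 13.8 against 12.5 and 9.94 FPKM, and Gaa, the acid glucosidase that digests glycogen, at 27.8 and 26.6 against 21.0 and 23.1 FPKM. Groups were also separated downwards for Gusb, beta-glucuronidase, by a small margin (log2 change -0.12).

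Other glycosidases differed little. Glb1, the beta-galactosidase used as a senescence stain, stood at 17.8 and 18.6 FPKM in WT and at 19.2 and 17.4 FPKM in Calu-KO, so its groups overlapped. They overlapped too for Man2b1, Idua and Galc, with log2 changes of -0.12, -0.08 and 0.05. Fuca1, alpha-fucosidase, was higher in both Calu-KO libraries, at 17.1 and 15.4 FPKM against 14.0 and 14.9 FPKM (log2 change 0.16, adjusted p = 0.413). The 12 glycosidases together summed to 179 and 176 FPKM in WT and 142 and 133 FPKM in Calu-KO, 1.29-fold lower.

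**Figure D2:**
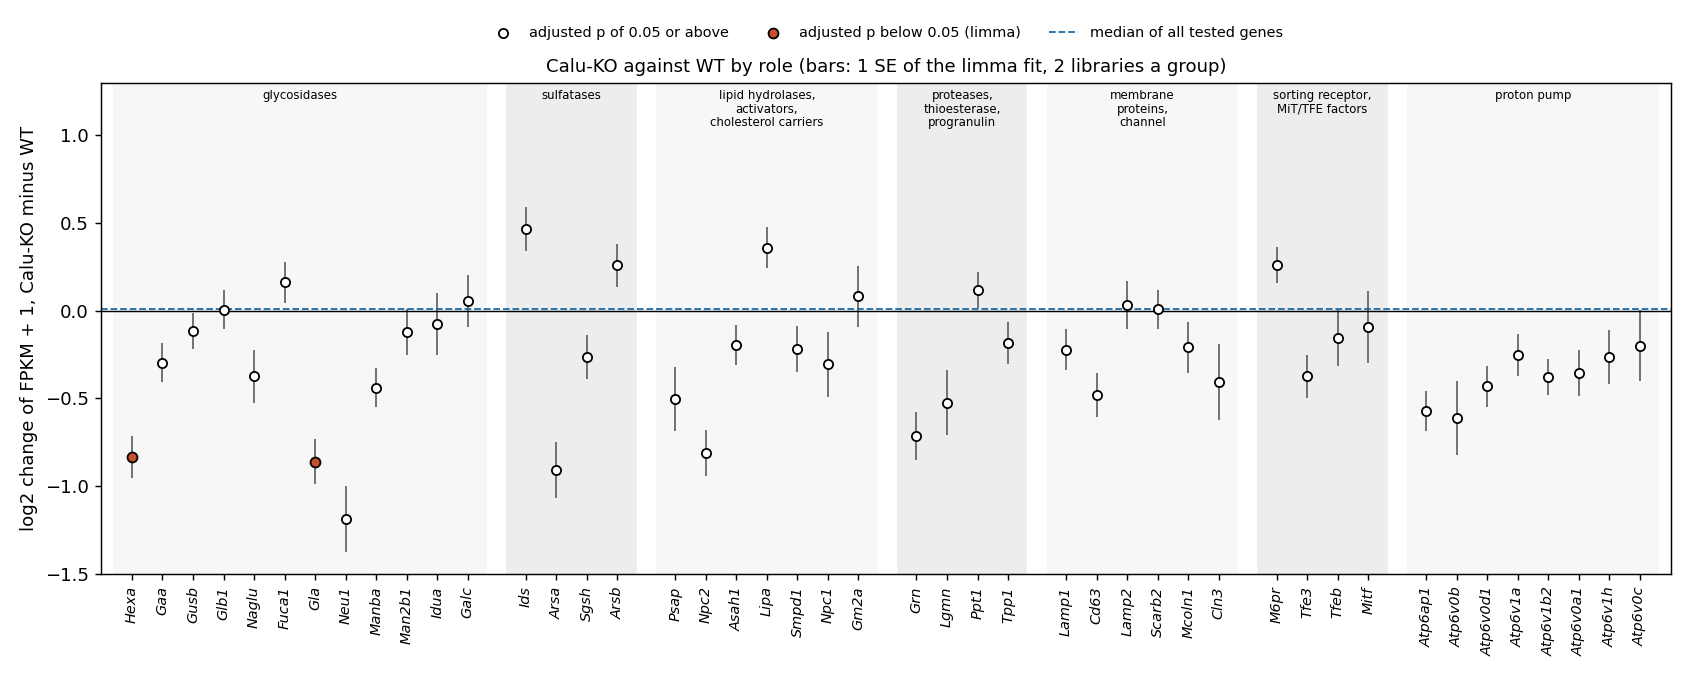
Log2 change of FPKM + 1, Calu-KO minus WT, for each member, grouped by role, with bars of 1 SE from the limma fit on 2 libraries a group. Filled points passed an adjusted p of 0.05, and the dashed line is the median of all tested genes. Hexa and Gla are the filled points, at -0.84 and -0.86, and the 8 proton pump genes all lie below 0.

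Sulfatases, which remove sulfate from glycolipids and glycosaminoglycans, split in direction. Arsa, arylsulfatase A, which acts on sulfatide, a myelin lipid (ENSMUSG00000022620), was at 19.5 and 20.0 FPKM in WT and at 11.7 and 8.65 FPKM in Calu-KO. Its mean was 1.94-fold lower, with a log2 change of -0.91 ± 0.16 that did not pass (limma, adjusted p = 0.0643). Ids, iduronate sulfatase, which starts the breakdown of heparan and dermatan sulfate (ENSMUSG00000035847), was the member with the highest log2 change. It was at 19.6 and 20.1 FPKM in WT and at 25.5 and 30.3 FPKM in Calu-KO, 1.40-fold higher (log2 change 0.46 ± 0.13, adjusted p = 0.125). The groups of both genes were separated, in opposite directions. Arsb, arylsulfatase B, was at 2.97 and 3.05 FPKM in WT and at 3.85 and 3.74 FPKM in Calu-KO (log2 change 0.26, adjusted p = 0.267), while Sgsh, heparan N-sulfatase, was lower, at 3.07 and 3.35 against 3.99 and 4.12 FPKM. The summed level of the 4 sulfatases differed 1.04-fold.

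Lipid hydrolases, their activators and the cholesterol carriers included the member most abundant in WT. Psap encodes prosaposin, the precursor of the saposins that present sphingolipids to their enzymes. It stood at 301 and 295 FPKM in WT and at 245 and 178 FPKM in Calu-KO, a 1.40-fold lower mean. Its Calu-KO libraries lay far apart, at 212 ± 47.4 FPKM against 298 ± 4.26 FPKM in WT (SD, n = 2 each; log2 change -0.51 ± 0.18, limma, adjusted p = 0.180). Npc2, the soluble protein that hands cholesterol on to the membrane protein NPC1 (ENSMUSG00000021242), was at 47.9 and 47.2 FPKM in WT and at 29.2 and 24.3 FPKM in Calu-KO. Its mean was 1.78-fold lower (log2 change -0.81 ± 0.13, adjusted p = 0.0519, passed in 6 of 12 alternatives). Npc1 was at 4.78 and 4.60 FPKM against 2.94 and 4.38 FPKM, with Calu-KO replicate 1 the low library.

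Lipa, the acid lipase that frees cholesterol and fatty acids from lipoproteins (ENSMUSG00000024781), went the other way. It was at 28.3 and 29.8 FPKM in WT and at 35.4 and 39.8 FPKM in Calu-KO, 1.29-fold higher without overlap (log2 change 0.36 ± 0.12, limma, adjusted p = 0.157). Smpd1, acid sphingomyelinase, and Asah1, acid ceramidase, were a little lower in both Calu-KO libraries (log2 changes -0.22 and -0.20). Gm2a, the activator that lifts GM2 ganglioside for beta-hexosaminidase, overlapped at 2.69 and 3.03 against 2.62 and 3.60 FPKM. So of 7 genes 5 were separated downwards and 1 upwards, beside 29.7% and 32.0% of all tested genes. By limma 0 passed, with 2 lower and 1 higher at an unadjusted p under 0.05, beside 12.7% and 12.0%.

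Grn encodes progranulin, a secreted and lysosomal glycoprotein cut into granulins (ENSMUSG00000034708). It stood at 94.7 and 93.6 FPKM in WT and at 63.1 and 51.6 FPKM in Calu-KO, 1.64-fold lower (log2 change -0.71 ± 0.14, limma, adjusted p = 0.0726). Lgmn, the asparaginyl protease legumain, was at 53.6 and 54.5 FPKM against 44.3 and 31.3 FPKM, with most of the difference in Calu-KO replicate 2 (log2 change -0.52 ± 0.18, adjusted p = 0.174). Both were separated downwards. Tpp1, a tripeptidyl peptidase, was at 29.8 and 28.5 against 27.3 and 23.7 FPKM. Ppt1, the thioesterase that removes palmitate from proteins, was slightly higher in both Calu-KO libraries, at 42.3 and 42.8 against 38.5 and 39.9 FPKM.

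Membrane proteins of the lysosome were the most abundant class, at a summed 472 and 480 FPKM in WT and 388 and 398 FPKM in Calu-KO. Lamp1, a heavily glycosylated protein lining the limiting membrane, stood at 248 and 251 FPKM in WT and at 204 and 223 FPKM in Calu-KO (log2 change -0.22 ± 0.12, limma, adjusted p = 0.293). Cd63, a tetraspanin of late endosomes and lysosomes, stood at 160 and 165 FPKM against 125 and 108 FPKM (log2 change -0.48 ± 0.12, adjusted p = 0.113). Neither gene's groups overlapped. Cd63 has a transcribed processed pseudogene, Cd63-ps, listed at 89.6 and 93.5 FPKM in WT and 73.6 and 73.4 FPKM in Calu-KO. Reads could be split between the copies, so both values are uncertain.

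Lamp2, which also serves chaperone-mediated autophagy, overlapped at 35.5 and 36.4 FPKM in WT against 33.0 and 40.8 FPKM in Calu-KO. So did Scarb2, the carrier of beta-glucocerebrosidase, at 18.1 in both WT libraries against 17.2 and 19.2 FPKM. Mcoln1, a cation channel of the lysosomal membrane, was at 6.26 and 5.61 against 5.56 and 4.47 FPKM, separated by a narrow gap. Cln3, a membrane protein mutated in juvenile Batten disease, was at 4.30 and 4.46 against 3.92 and 2.34 FPKM, the lowest value being in Calu-KO replicate 2. The Cln3 span shares 876 bases with Apobr on the other strand, a gene with a mean of 10.8 FPKM. Spans of 9 members share bases with another tested gene (Grn, Manba, Cln3, Npc1, Atp6v1h, Lamp1, Idua, Glb1 and Ppt1), and since the strand setting of the counting is not given, such reads cannot be told apart.

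The proton pump was the role in which all members had a negative log2 change, 8 of 8, with a median of -0.37. Its summed level was 272 and 279 FPKM in WT and 202 and 196 FPKM in Calu-KO, 1.39-fold lower. Both Calu-KO libraries were below both WT libraries for 7 of the 8, where the share over all tested genes was 29.7%. By limma 0 of the 8 passed, and 5 were lower at an unadjusted p under 0.05 (12.7% of all tested genes). Pump subunits outside the member list, given below, were less uniform: of 10 tested, 8 were negative and 2 positive.

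In the membrane sector, Atp6ap1, an accessory subunit needed for pump assembly, stood at 88.9 and 88.4 FPKM in WT and at 62.2 and 56.4 FPKM in Calu-KO. It was 1.49-fold lower, with a log2 change of -0.57 ± 0.11 (limma, adjusted p = 0.0746). Atp6v0b, a subunit of the proton-carrying ring, was at 49.0 and 53.4 FPKM against 40.6 and 27.0 FPKM (log2 change -0.61 ± 0.21, adjusted p = 0.171). In this gene the Calu-KO libraries lay far apart. Atp6v0d1, which links the ring to the central stalk, was at 41.8 and 42.3 against 29.0 and 33.0 FPKM (log2 change -0.43 ± 0.12, adjusted p = 0.120), and Atp6v0a1, the subunit forming the proton channels, at 22.6 and 20.9 against 15.3 and 18.3 FPKM.

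In the cytosolic ATPase sector, Atp6v1a, the catalytic subunit, was at 34.2 and 36.2 FPKM in WT and at 27.4 and 31.4 FPKM in Calu-KO (log2 change -0.26 ± 0.12, limma, adjusted p = 0.256). Atp6v1b2, the partner of that subunit in the ATPase ring, was at 24.5 and 25.4 against 18.7 and 19.2 FPKM (log2 change -0.38 ± 0.10, adjusted p = 0.124). Its WT and Calu-KO pairs were each tight. Atp6v1h, a regulatory subunit, was at 9.78 and 10.4 against 7.19 and 9.38 FPKM. Its log2 change went from -0.26 to -0.57, and its adjusted p from 0.332 to 0.0422, when the trend in GC content and length was removed. Pump genes moved both ways, as Atp6v0b went from -0.612 to -0.406.

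Atp6v0c, which encodes the main subunit of the proton-carrying ring, was covered by 65 and 103 WT reads and by 68 and 56 Calu-KO reads, and its groups overlapped. Its processed pseudogene Atp6v0c-ps2 on chromosome 6 was listed far higher, at 176 and 177 FPKM in WT and 123 and 98.2 FPKM in Calu-KO (1.59-fold lower, log2 change -0.68 ± 0.15, limma, adjusted p = 0.0887). The pseudogenes of Atp6v0c and Cd63 were looked at after the members' values were seen. The counting could split reads between Atp6v0c and its copy, so the level of the pump subunit itself is uncertain.

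**Figure D3:**
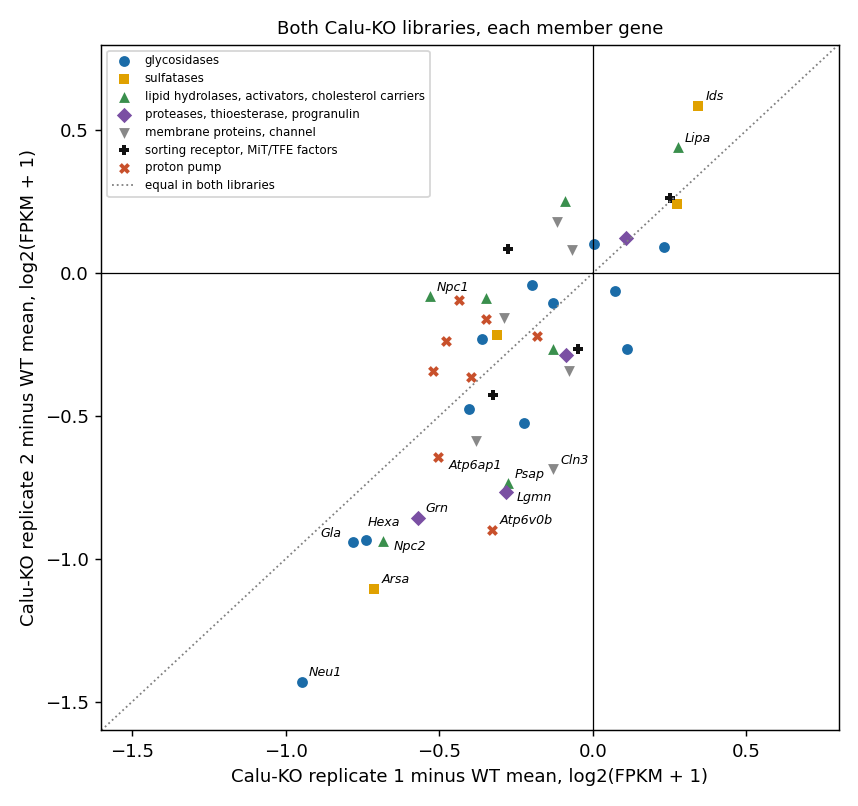
Difference of each Calu-KO library from the WT mean, on log2(FPKM + 1), with replicate 1 on the horizontal and replicate 2 on the vertical axis; each point is a member gene, coloured by role. Both libraries were below the WT mean for 32 members, above it for 7 and on either side for 6. The same counts were not made over all tested genes, so these only describe the points. Neu1 lies lowest in both, and Neu1, Arsa, Gla, Hexa, Npc2 and Grn lie below the dotted line of equal values.

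The Calu-KO libraries leaned the same way. The median member stood -0.28 from the WT mean in replicate 1 and -0.24 in replicate 2. Replicate 2 was below replicate 1 for 24 of 45 members and for 5630 of all 11885 tested genes. How close the 2 libraries lie depends on the FPKM scaling. As a share of all reads, the members together stood at 0.636% and 0.632% in WT replicates 1 and 2. In Calu-KO replicates 1 and 2 their share was 0.512% and 0.439%. The median gap between the Calu-KO libraries was 0.20 over members and 0.24 over all tested genes. Between the WT libraries it was 0.04 and 0.08.

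Transcription factors of the MiT/TFE family were among the least abundant members. Tfe3 stood at 7.76 and 6.92 FPKM in WT and at 5.66 and 5.19 FPKM in Calu-KO, separated but short of the threshold (log2 change -0.38 ± 0.12, limma, adjusted p = 0.161). Tfeb stood at 2.51 and 2.27 FPKM in WT and at 2.27 and 1.82 FPKM in Calu-KO (log2 change -0.16 ± 0.16, adjusted p = 0.557), and Mitf at 1.28 and 1.11 FPKM against 0.811 and 1.33 FPKM (log2 change -0.10 ± 0.20, adjusted p = 0.789). The groups of Tfeb and Mitf overlapped. These factors are controlled largely by their phosphorylation and place in the cell, which RNA levels do not show. M6pr, the cation-dependent receptor for mannose phosphate, was higher in Calu-KO, at 39.4 and 39.8 FPKM against 32.5 and 33.5 FPKM (1.20-fold, log2 change 0.26 ± 0.10, adjusted p = 0.208).

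Other genes of the lysosome, from lists of 82, were also lower on balance. These lists were chosen with earlier results of these data known. Of 74 tested 54 (73.0%) had a negative log2 change, against 49.3% of all tested genes, with a median of -0.19. Both Calu-KO libraries were below both WT libraries for 39 and above for 9, beside 29.7% and 32.0% of all tested genes. By limma 5 fell and 0 rose, beside 1.83% and 0.942%. At an unadjusted p under 0.05, 24 were lower and 2 higher, beside 12.7% and 12.0% of all tested genes.

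Cathepsins, the main lysosomal proteases, had the lowest median of these lists, -0.50 over 8 tested of 11. Of the 8, 7 were negative and 1 fell, beside 49.3% and 1.83% of all tested genes. Ctsk, the collagen-cutting cathepsin K, fell from 48.1 and 48.7 FPKM in WT to 17.6 and 13.4 FPKM in Calu-KO (log2 change -1.59 ± 0.15, limma, adjusted p = 0.0266). Ctso had the positive value (log2 change 0.38, adjusted p = 0.251). The list of cathepsins summed to 458 and 457 FPKM in WT and 327 and 278 FPKM in Calu-KO.

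Of 18 tested other hydrolases and cofactors 2 fell, beside 1.83% of all tested genes, and the median was -0.16. Dpp7, a dipeptidyl peptidase, fell from 11.0 and 12.7 to 5.39 and 3.92 FPKM (log2 change -1.19, limma, adjusted p = 0.0436). Its groups did not overlap.

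Of 10 tested other pump subunits 1 fell, beside 1.83% of all tested genes, with a median of -0.14. This was Atp6v0e2, a small membrane subunit, from 17.8 and 16.1 to 9.09 and 7.67 FPKM (log2 change -0.94, limma, adjusted p = 0.0412). Of the 10, 4 were separated downwards and 2 upwards, beside 29.7% and 32.0% of all tested genes, and 4 overlapped. The 2 were Atp6v0a2 and Atp6v1e1, with log2 changes of 0.23 and 0.13. Among 15 genes of mTORC1 and nutrient sensing at the lysosome 1 fell, again beside 1.83%, and the median was -0.31. Rragd, a Rag GTPase through which amino acids recruit mTORC1 and a known target of MiT/TFE factors, fell from 4.39 and 4.15 to 1.19 and 1.63 FPKM (log2 change -1.14, adjusted p = 0.0412). The other 2 lists were enzyme sorting genes and other membrane proteins. Of 9 enzyme sorting genes tested 0 passed, with 0 at an unadjusted p under 0.05 and a median of -0.17. Of 14 other membrane proteins tested 0 passed, and the median was -0.04. At an unadjusted p under 0.05, 3 of the 14 were lower and 2 higher, beside 12.7% and 12.0% of all tested genes.

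**Figure D4:**
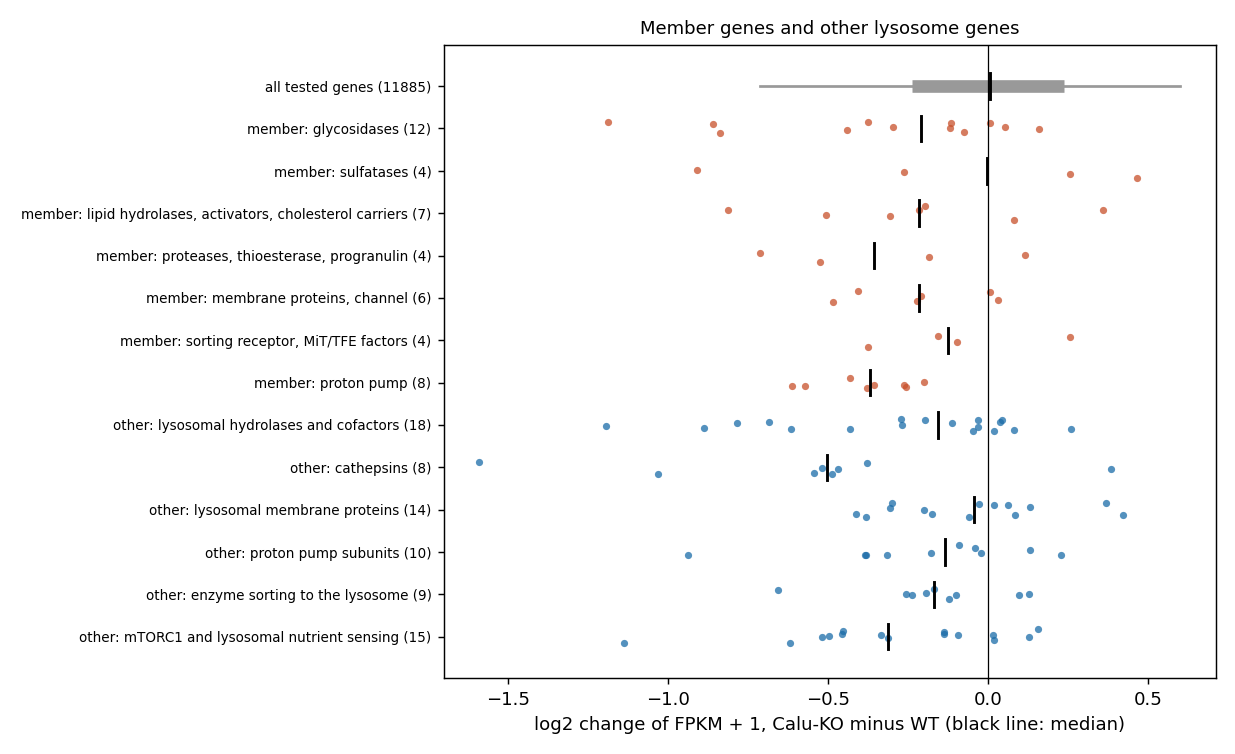
Log2 change of FPKM + 1, Calu-KO minus WT, of every tested gene in the 7 roles of the member list (red) and in 6 lists of other lysosome genes (blue), with the number tested in brackets and a black line at the median. The grey bars show all 11885 tested genes, thick from the 25th to the 75th percentile and thin from the 5th to the 95th. Cathepsins have the lowest median, -0.50, and of the member roles the proton pump, -0.37.

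Few members changed their side of 0 with the processing. The filters, the intensity trend and the replicate block cannot move a log2 change, so only the other alternatives could turn a sign. Over 12 alternatives (11 for the 10 members with a mean under 5 FPKM) 38 of the 45 members kept one sign, and the 7 that did not (Glb1, Scarb2, Lamp2, Galc, Gm2a, Idua and Mitf) had log2 changes within 0.10 of 0. How many of all tested genes kept one sign was not counted. The number of members that passed depended on the processing. By limma it was 0 without WT replicate 1 or WT replicate 2 (6 lower and 0 higher at an unadjusted p under 0.05 in each). Without Calu-KO replicate 1, 20 members were lower and 3 higher, beside 23.6% and 24.6% of all tested genes. Without Calu-KO replicate 2, 20 were lower and 1 higher, beside 9.51% and 7.76%. The rise in calls was thus seen over all tested genes and not in the members alone.

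**Figure D5:**
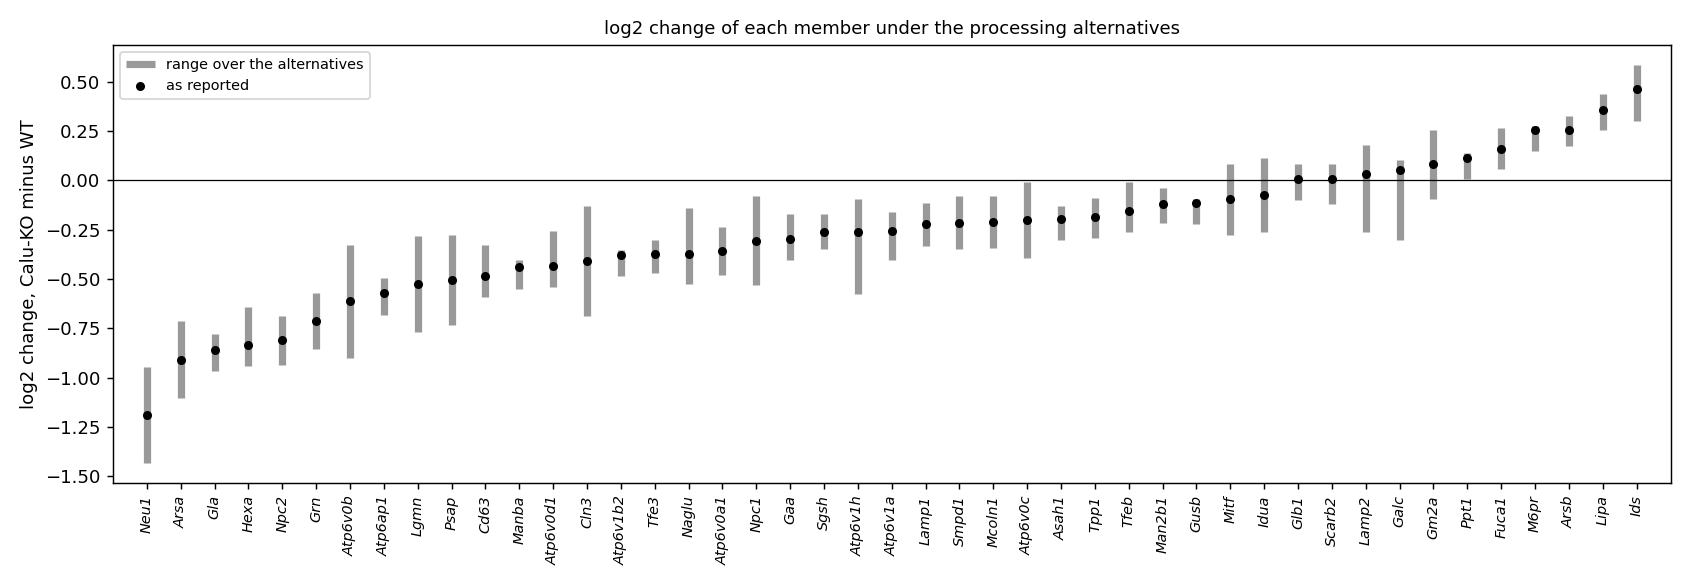
Log2 change of each member, Calu-KO minus WT, as reported (black points) with the range over the 12 processing alternatives, or 11 for 10 members of low level (grey bars), ordered from lowest to highest. The bars of 38 members stay on one side of 0, from Neu1 at -1.19 to Ids at 0.46.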

How the data were processed

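RNA of 2 WT and 2 Calu-KO libraries was sequenced as paired ends on an Illumina NovaSeq instrument and aligned with HISAT2 2.0.5, per the labels' protocols, to mm10, per the submitters' processing notes. The read counter, annotation, strand setting and FPKM program were not stated in these sources. The authors deposited 1 table of FPKM values per gene and library, with gene lengths. FPKM times length gave whole reads for 100% of values (tolerance 0.001 reads), which were used for depth, scaling and shares of reads only. Groups were taken from the genotype labels. Genes averaging 1 FPKM or more were compared on log2(FPKM + 1), a scale that understates changes of low genes, with limma 3.58.1 in R 4.3.3 (lmFit, eBayes with an intensity trend), two-sided, with Benjamini-Hochberg adjustment over all tested genes. All adjusted p-values are from limma. Folds divide mean FPKM values. The code was tested on simulated data.

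The members, gene lists, roles and markers were chosen with earlier results of these data known. Named were members past the threshold, the 6 lowest and 4 highest log2 changes, the 5 most abundant, MiT/TFE factors, other lysosome genes past the threshold and promoters with CACGTG. The remaining members were added to account for all 45. Not every gene so chosen is reported here. Coordinates are those of the deposited table, and 44 of 45 members had the same start and end in GENCODE M21 (GRCm38). Promoter windows are from RefSeq (GRCm38.p6), with none used for Asah1, Npc1, M6pr, Atp6v1b2 and Atp6v1h. GC content is that of the longest GENCODE transcript. The alternatives were a pseudocount of 0.1 FPKM, no filter, a mean of at least 5 FPKM, no intensity trend, scaling to total reads, the replicate number as a block, removal of a spline trend (5 degrees of freedom) in GC content and length, both of these, and leaving out each library.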

Additional observations from a re-analysis of the deposited data

How the results depend on the processing

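As reported, 2 members were lower, 0 higher, and the median was -0.255. Members lower numbered 1 with a pseudocount of 0.1 FPKM, 0 with no filter (14 at an unadjusted p under 0.05), 4 at a mean of at least 5 FPKM (35 tested), 0 with no intensity trend (15 unadjusted), 0 with scaling to total reads (21 unadjusted), 5 with the replicate block, 5 with the GC and length trend removed and 6 with both. Without single libraries, members lower ran from 0 (without either WT library) to 20 (without either Calu-KO library), and members higher from 0 to 3 (without Calu-KO replicate 1). The median was -0.291 with the lower pseudocount, -0.296 at a mean of at least 5 FPKM and -0.350 with scaling to total reads, where all genes stood at -0.088. Without single libraries it ran from -0.283 to -0.229.

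Of all tested genes 217 were lower and 112 higher. With no filter both counts were 0 (2174 lower and 1712 higher unadjusted). Lower genes numbered 130 at a mean of at least 5 FPKM. Higher genes numbered 45 with scaling to total reads, which made 22.8% of calls higher against 34.0% as reported, 181 with the replicate block and 214 with the GC trend removed. With the GC trend removed and the block, 466 were lower and 345 higher. Without single libraries, lower genes ran from 34 to 2805 and higher genes from 8 to 2926. Leaving out a Calu-KO library takes the spread from the closer WT pair.

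Log2 changes near 0 turned sign. With scaling to total reads Glb1 was -0.098, Scarb2 -0.096, Lamp2 -0.076, Galc -0.017 and Gm2a -0.003. With the GC trend removed, with or without the block, Scarb2 was -0.121, Lamp2 -0.260 and Galc -0.304. Without single libraries Glb1 ran from -0.062 to 0.071, Mitf from -0.276 to 0.085, Idua from -0.264 to 0.112, Scarb2 from -0.069 to 0.082, Lamp2 from -0.117 to 0.178 and Gm2a from -0.092 to 0.253. Where no value shows a cause, the cause was not tested.

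Samples with the same replicate number did not deviate together (correlation 0.0153 across genes, 2 pairs). With 2 pairs and genes that are not independent, this cannot tell whether such samples share an animal, culture or batch. Of the members Atp6v0c and Mitf had the fewest reads, 56 to 130 a library, and how far depth limits their values was not tested.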

Other observations

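Values of enzymes that work together were spread. These groupings were made after the values were seen, and no difference between genes was tested. Neu1, Glb1 and Ctsa, the cathepsin A that protects both enzymes in a shared complex, had log2 changes of -1.19, 0.00 and -0.52 (Ctsa stood at 32.2 and 31.0 FPKM in WT against 22.0 and 21.5 FPKM, limma, adjusted p = 0.0778). Among enzymes of heparan and dermatan sulfate breakdown, Ids and Arsb had log2 changes of 0.46 and 0.26, Naglu, Sgsh and Gusb -0.37, -0.26 and -0.12, and Idua -0.08.

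Members on the X chromosome also spread widely. Their 5 log2 changes were -0.86 for Gla, -0.57 for Atp6ap1, -0.38 for Tfe3, 0.03 for Lamp2 and 0.46 for Ids, beside a median of 0.05 over all tested genes of that chromosome.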
